A study of Mus musculus with 6 samples.

Results

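Transcripts of interferons, of their receptors, of the interferon regulatory factors (IRF) and of the genes that interferons induce were followed in RNA from whole thymus. Members were chosen by symbol, as genes named Ifi, Ifn, Oas, Gbp, Irf or Mx in the deposited table plus Isg15, Isg20, Rsad2, Usp18, Irgm1, Irgm2, Igtp and Ddx58, with at least 10 reads summed over the 6 libraries. Of 93 matching names 74 met that minimum, in a table of 24054 genes, and 19 did not. The libraries came from 3 monogenic controls and 3 K5-rtTA:TetO-RANKL mice. In the latter doxycycline allows the keratin 5 promoter, active in basal and medullary epithelium and in skin, to switch on the cytokine RANKL. Both groups were given doxycycline in food and water, from 8 weeks of age for 1 week by one text of the labels and from 9 weeks of age for 2 weeks by another. Strain and sex are not given, and the labels do not say which of the transgenes a control carried or that each library was a separate animal, so that a p-value here speaks of the spread among these libraries, which may in part be technical.

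Interferons are secreted cytokines of 3 types. Type I interferons (alpha, beta and others) and type III interferons (lambda) bind different receptors, but both assemble a complex of STAT proteins and IRF9 that binds a DNA element called the interferon-stimulated response element (ISRE). Type II interferon (gamma) signals through STAT pairs that bind the gamma-activated site (GAS). In the thymus, interferon is made at rest by medullary epithelium, among other cells, and the genes it induces are part of the normal transcript content of the organ. IRF factors bind ISRE-like letters themselves, and several of them also serve cell development outside any interferon response.

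Most of the tested members were higher with RANKL. Of 72 members that passed the low-count filter, 50 were higher (69.4%) and 5 lower (6.94%) at an adjusted p under 0.05 in edgeR's quasi-likelihood test, and 17 were not called. Over all 16096 genes tested 33.8% were higher and 29.6% lower, 63.4% in all. The member log2 fold changes (RANKL over control) ran from -1.44 to 4.76 with a median of 1.20, against -0.02 for all genes tested. At least 4-fold increases were called in 28 members (38.9%), against 17.2% of all genes tested, and a 4-fold decrease in no member, against 3.43%. The low-count filter can be met by 1 group alone, for members and all genes alike. Oas1d, Oas1e, Oas1f, Oas1h, Ifitm5, Ifitm6, Ifi27l2b and Ifnl2 passed it only through their RANKL libraries and are among the 28, so their large folds are in part a product of that entry. In 50 of the 74 members, among them 1 that was too low to test, every RANKL library lay above every control library, in 5 every one lay below, and in 19 the groups overlapped. Among all genes tested those shares were 36.1% above and 34.1% below. The 5 members that fell were Ifngr1, Irf3, Irf2bp1, Isg20 and Gbp4.

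**Figure D1:**
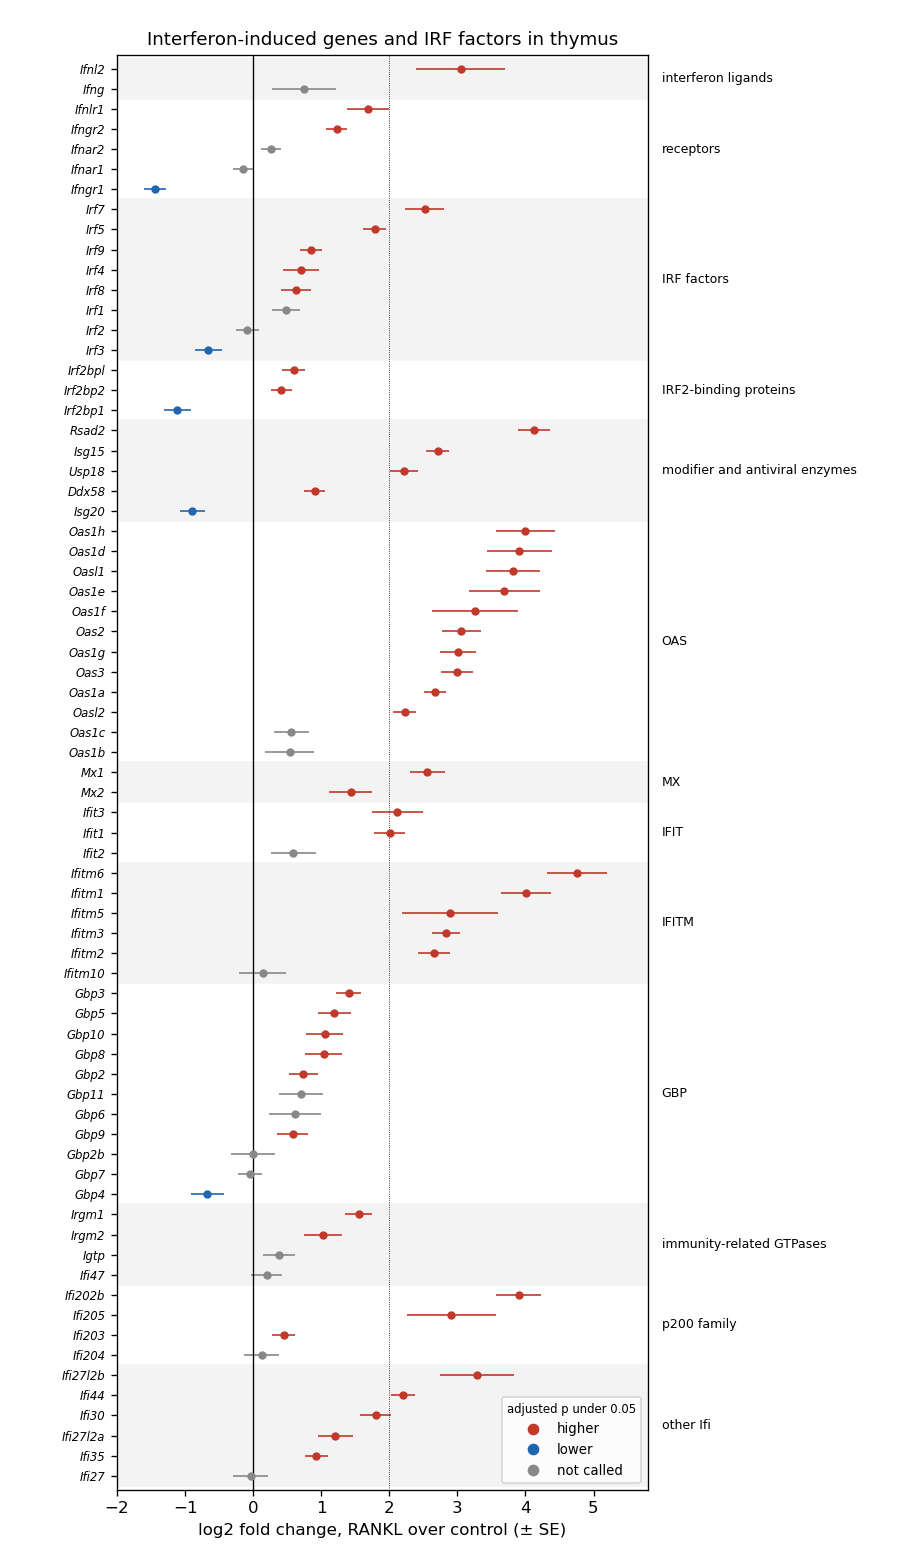
Log2 fold change (RANKL over control, x axis) of the tested members, all but 1 shown, 1 row per gene grouped by role, with bars of 1 SE and colours for higher, lower and not called; the dotted line marks a log2 fold change of 2. Of 12 OAS genes 10 lie to the right of that line, while the receptors and IRF factors lie on both sides of 0.

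Member transcripts took 0.381% to 0.419% of the reads in the control libraries and 0.792% to 0.935% in the RANKL libraries. Library totals ran from 18254870 to 25357060 reads. Levels are given as CPM, read counts scaled to library size, and 3 reads, the limit that a count of 0 allows, correspond to 0.122 to 0.161 CPM, which covers counting error only. Tnfsf11, the gene of RANKL, was at 6.01, 6.34 and 8.89 CPM in the control libraries and at 3334, 4812 and 2389.7 CPM in the RANKL libraries, which goes with the labels. The make-up of the tissue differed between the groups. All 9 markers of double-positive thymocytes, the main cells of the cortex, fell, from a summed 8997–10200 CPM to 186.6–851.4 CPM. All 7 markers of medullary epithelium rose (518–647 to 4202–5566 CPM), as did all 9 of macrophages and monocytes (505–663 to 1515–2014 CPM) and all 8 of neutrophils (18.8–53.5 to 2836–5757 CPM). No marker of these 4 lists that was in the table was at 0 in a group. All 4 tested markers of keratinocytes (14.1–31.5 to 193–293 CPM) and all 5 of fibroblasts (311–349 to 2319–4607 CPM) also rose. All 5 markers of cortical epithelium fell (3529–4998 to 966–1563 CPM). Krt5, the keratin 5 gene and so not particular to the medulla, was alone at 2159, 2793 and 2129 CPM of the medullary sum with RANKL. In such bulk RNA, a change in the number of cells of a type and a change in RNA per cell cannot be told apart, and the part of these shifts in each result below was not tested.

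Sequences around the gene starts are shown because the ISRE is the element that the interferon complex and the IRF factors bind, and because members with it moved to different degrees. RefSeq gave a promoter window (250 bases before to 50 after the start, GRCm38.p6) for 56 of the 74 members. The ISRE letters (GAAA, then any 2 bases, then GAAA), on either strand and with overlapping matches allowed, were present for 22 of these 56 genes (39.3%), against 3.85% of the genes tested that had a window. Windows counted singly gave 33.3% for members and 3.44% for all 32851 windows. A match of letters is a description and not a measured binding site. In each line below the capitals mark the ISRE letters, written 5′ to 3′ in the GAAA orientation with 10 bases on each side. The matches of Ddx58 and Ifitm3 shown lie 2 and 19 bases after the start, and the others before it. Ifit1, Ifi205 and Ifitm3 each held a further match that is not shown.

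Isg15: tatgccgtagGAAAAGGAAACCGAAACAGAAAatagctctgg
Oas1a: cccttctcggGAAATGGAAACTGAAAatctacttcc
Oas1g: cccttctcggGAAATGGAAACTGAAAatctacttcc
Oas1c: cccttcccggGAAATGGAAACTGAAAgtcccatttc
Irgm1: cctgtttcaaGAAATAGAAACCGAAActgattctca
Gbp3: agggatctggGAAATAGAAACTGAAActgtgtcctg
Gbp7: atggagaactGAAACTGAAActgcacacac
Gbp2b: tgataaagaaGAAAGTGAAAttagaagtac
Igtp: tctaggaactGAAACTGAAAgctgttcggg
Irgm2: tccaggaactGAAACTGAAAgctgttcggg
Ifit1: tcagcagtgaGAAACTGAAActgagactgg
Ifitm3: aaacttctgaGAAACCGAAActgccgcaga
Ddx58: ctggccatagGAAATCGAAActgcctcagg
Ifi203: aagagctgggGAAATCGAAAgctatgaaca
Ifi205: ccaggccaggGAAATTGAAAgctatgaaca

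The letters did not separate the members that rose from those that were not called. They were found for 17 of 38 members that were higher (44.7%), 5 of 12 that were not called (41.7%) and none of 4 that were lower. Oas1a and Oas1g carried one and the same 36-base stretch, and that of Oas1c was identical to it at 30 of 36 positions, all differences lying in the flanks. Both Oas1a and Oas1g rose, and Oas1c was not called (log2 fold change 0.56 ± 0.26). Igtp and Irgm2 are neighbours on chromosome 11 with stretches identical at 29 of 30 positions. Irgm2 rose (log2 1.03 ± 0.27), and Igtp did not pass the test (0.38 ± 0.23) but did without RANKL replicate 2. The stretches of Ifi203 and Ifi205 were identical at 23 of 30 positions, with log2 fold changes of 0.45 and 2.91. The GAS letters TTCNNNGAA, which are their own reverse complement, were found for 18 of 56 member genes (32.1%) against 8.42% of genes tested. Among members they were found for 8 of 38 that were higher (21.1%) and for 8 of 12 that were not called (66.7%).

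The stretches before the starts of Isg15 and Rsad2 are given at greater length, because Isg15 held the longest run of the letters, 3 overlapping matches from 78 bases before the start, and Rsad2, with a single match on the other strand 120 bases before its start, had the largest fold of any member with a match. Both are 250 bases on the minus strand of GRCm38.p6, at chr4:156200819-156201068 and chr12:26456453-26456702.

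Isg15: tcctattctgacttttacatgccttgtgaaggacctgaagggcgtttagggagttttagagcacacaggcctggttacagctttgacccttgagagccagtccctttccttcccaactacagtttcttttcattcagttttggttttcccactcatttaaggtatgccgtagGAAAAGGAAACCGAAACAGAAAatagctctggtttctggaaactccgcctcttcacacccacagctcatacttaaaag
Rsad2: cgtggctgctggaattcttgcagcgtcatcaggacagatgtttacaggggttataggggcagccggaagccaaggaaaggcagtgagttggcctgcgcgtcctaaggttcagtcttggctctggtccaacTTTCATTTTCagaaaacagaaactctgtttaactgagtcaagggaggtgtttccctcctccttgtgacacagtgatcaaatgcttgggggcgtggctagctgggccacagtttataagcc

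**Figure D2:**
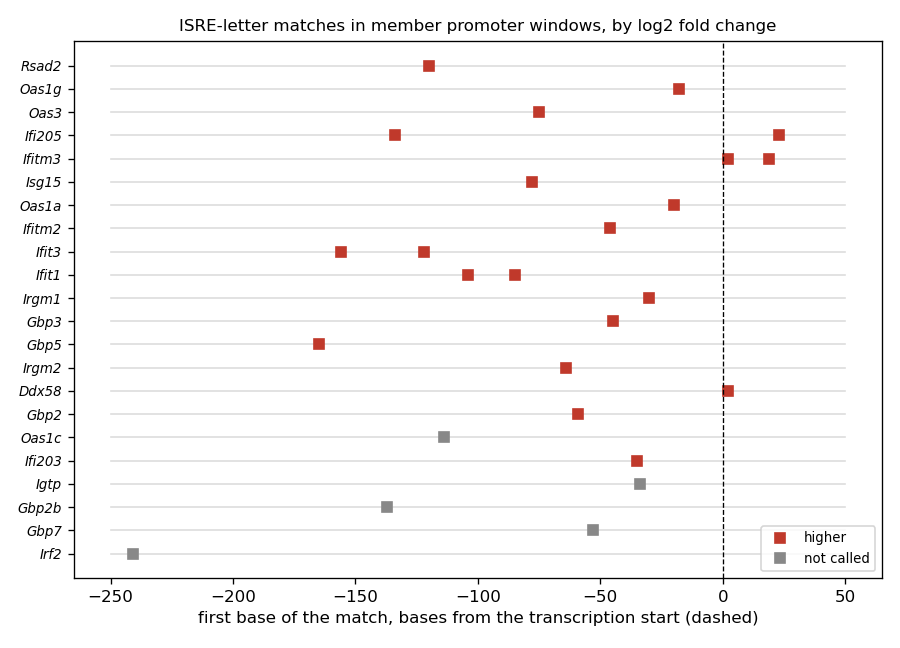
Distance in bases from the gene start (dashed, x axis) to each ISRE letter match in the promoter windows of the 22 members that hold one, in rows ordered by log2 fold change; red squares are members that were higher and grey squares members that were not called. Most matches lie before the start, and the grey squares fall at distances from 241 to 34 bases before it.

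Among the ligands, type I interferon transcripts were barely present. Of the 19 names under 10 reads 17 were interferon genes, mostly of the alpha cluster on chromosome 4, and of all 19 names 12 had 0 reads in every library and the others at most 5 in total. Ifnb1 (interferon beta) had 0, 0 and 2 reads in the control libraries and 4, 1 and 6 in the RANKL libraries, too few to be tested. Its ratio of summed reads, corrected for the summed library sizes, was 5.07, with a 95% interval of 1.11 to 47.0 from counting alone. Without the low-count filter its adjusted p was 0.163 in edgeR and 0.283 in DESeq2, so no change was detectable at this depth. Ifng (interferon gamma), made by T and NK cells, was at 0.422, 0.825 and 1.19 CPM in the controls and 1.35, 1.06 and 1.74 CPM with RANKL. The groups overlapped, and the log2 fold change of 0.75 ± 0.47 (SE) did not pass the test (edgeR adjusted p = 0.186).

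The type III genes Ifnl2 and Ifnl3 (interferon lambda), neighbours on chromosome 7 (28508784 to 28524401 in GRCm38), were the ligands with most reads in the RANKL libraries beside Ifng. Ifnl2 had 5, 1 and 2 reads in the control libraries and 26, 15 and 32 in the RANKL libraries. Every RANKL library was above every control library, and the log2 fold change was 3.05 ± 0.66 (edgeR adjusted p = 0.00276), or 3.85 without control replicate 1. Ifnl3 had 2, 0 and 0 reads in the controls and 26, 10 and 45 with RANKL, which is a ratio of 37.3 (95% interval 10 to 313 from counting alone). It was too low for the filter, and without the filter its adjusted p was 0.000593 in edgeR and 0.000162 in DESeq2. Of all 50-base words in their transcripts 31.7% of Ifnl2 and 38.8% of Ifnl3 also occur in the other gene, so reads may be exchanged between them and the pair is best read as a whole. At the stricter filter of 1 CPM in 3 libraries neither was kept.

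The 5 receptor chains did not move together. IFN-gamma is bound by IFNGR1 and needs IFNGR2 to signal, and their transcripts went in opposite directions. Ifngr1 (chromosome 10, 19591949 to 19610229) was at 525, 602 and 649.6 CPM in the controls and 204, 224 and 226 CPM with RANKL. The RANKL libraries lay close together and all below the controls, a fall from 592 ± 63.0 to 218 ± 12.1 CPM (mean ± SD, n = 3 per group) or 2.72-fold (log2 -1.44 ± 0.16, edgeR adjusted p = 6.68e-05), and this was the largest decrease of any member. Ifngr2 (chromosome 16, 91547059 to 91564007) was at 74.7, 75.1 and 87.5 CPM in the controls and 193, 175 and 187 CPM with RANKL. It rose 2.34-fold (log2 1.23 ± 0.15, edgeR adjusted p = 9.63e-05) with no overlap. Per kilobase of exon, the mean level of Ifngr1 went from 208 to 76.5 CPM and that of Ifngr2 from 21.0 to 49.1 CPM, so the lower chain of the pair remained Ifngr2, but by a smaller margin.

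The receptor chains for type I interferon were not called. Ifnar1 was at 136, 151 and 148 CPM in the controls and 113, 146 and 134 CPM with RANKL, with overlap (log2 -0.15 ± 0.16, edgeR adjusted p = 0.432). Ifnar2 was at 87.5, 72.4 and 75.0 CPM in the controls and 91.7, 97.9 and 91.4 CPM with RANKL. Its RANKL libraries were all above the controls, but the difference of 0.26 ± 0.15 on the log2 scale did not pass the test (edgeR adjusted p = 0.15). Ifnlr1, the lambda-specific chain, which is found mainly on epithelia and neutrophils, rose 3.21-fold, from 4.11, 5.26 and 3.06 to 14.05, 16.5 and 9.38 CPM (log2 1.68 ± 0.31, edgeR adjusted p = 0.00112). The groups did not overlap. The medullary epithelium and neutrophil markers, of cell types that carry this chain, rose beside it, and their part was not tested.

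Of the 9 IRF factors 6 were higher, 1 was lower and 2 were not called, beside 33.8% higher and 29.6% lower over all genes tested. The median of the 9 log2 fold changes was 0.70. Irf7, the factor that amplifies type I interferon production and is itself strongly interferon-induced (chromosome 7, 141263183 to 141266499), was at 69.0, 56.1 and 75.0 CPM in the controls and 516, 235 and 394 CPM with RANKL. All RANKL libraries were far above the controls but spread among themselves, with RANKL replicate 2 the lowest, and Irf7 rose 5.73-fold (log2 2.52 ± 0.28, edgeR adjusted p = 5.78e-05). Irf5 (chromosome 6, 29526130 to 29541869), a factor of macrophages, dendritic cells and B cells, was at 34.005, 26.3 and 30.7 CPM and rose to 102.7, 94.0 and 117 CPM. That was 3.44-fold (log2 1.78 ± 0.17, edgeR adjusted p = 2.46e-05). Beside it all 9 macrophage and monocyte markers rose, and none of 6 B cell markers was called. Of 8 conventional dendritic cell markers 4 rose and 2 fell, and of 4 plasmacytoid ones 2 rose and 1 fell. The part of these cell types was not tested.

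Irf9, the DNA-binding part of the type I and III complex, was at 78.6, 78.4 and 64.8 CPM in the controls and 131, 119.6 and 148 CPM with RANKL. It rose 1.8-fold without overlap (log2 0.85 ± 0.16, edgeR adjusted p = 0.00126). Irf8, a factor of dendritic cells, monocytes and B cells, was at 146, 111 and 117 CPM in the controls and 230.4, 133 and 212 CPM with RANKL. One RANKL library lay within the control range, and the call (log2 0.62 ± 0.22, edgeR adjusted p = 0.0324) was lost without control replicate 2 (adjusted p = 0.122), control replicate 3 (adjusted p = 0.0986), RANKL replicate 1 (adjusted p = 0.0755) or RANKL replicate 3 (adjusted p = 0.0615), and with sample-title number ranges taken as a block (adjusted p = 0.0616). Control replicate 2 was alone in its title-number range, so in the block fit it added nothing to the difference between the groups. Irf4, a factor of activated lymphocytes and dendritic cells, was at 41.1, 28.8 and 28.7 CPM in the controls and 69.5, 34.5 and 56.4 CPM with RANKL. It too overlapped between groups, and its call (log2 0.70 ± 0.26, edgeR adjusted p = 0.0403) was lost without control replicate 2 (adjusted p = 0.142), control replicate 3 (adjusted p = 0.131), RANKL replicate 1 (adjusted p = 0.112) or RANKL replicate 3 (adjusted p = 0.0628), and in limma-voom (adjusted p = 0.0554).

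Irf3, the constitutive factor that starts interferon production once nucleic acid is sensed, was the IRF factor that fell. It was at 81.3, 107.5 and 84.2 CPM in the controls and 44.8, 60.8 and 67.5 CPM with RANKL, all of the latter lower (log2 -0.66 ± 0.20, edgeR adjusted p = 0.0145), and the call was lost without control replicate 2 (adjusted p = 0.0546) or RANKL replicate 1 (adjusted p = 0.0723). Irf1, an activator induced mainly by interferon gamma, was at 176, 171 and 178 CPM in the controls and 249.9, 177 and 309 CPM with RANKL. It did not pass the test (log2 0.49 ± 0.21, edgeR adjusted p = 0.061), with RANKL replicate 2 inside the control range, and it did without that library (log2 0.68, adjusted p = 0.0101) and at the stricter low-count filter (adjusted p = 0.0496). Irf2, a repressor of IRF1 targets, was at 84.5, 64.2 and 75.3 CPM in the controls and 61.1, 70.9 and 78.9 CPM with RANKL and was not called (log2 -0.09 ± 0.17, edgeR adjusted p = 0.672).

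Levels per kilobase of exon placed Irf1 first in the control thymus, at 44.0 CPM per kilobase, followed by Irf3 at 26.4. Irf8 and Irf7 came next at 17.67 and 17.66, whose libraries overlapped, and then Irf9 at 13.7, Irf5 at 10.4, Irf2 at 10.1 and Irf4 at 6.71. Libraries of Irf5 and Irf2 likewise overlapped, and those of the other neighbours named here did not. With RANKL the order became Irf7 at 101.1, Irf1 at 61.7, Irf5 at 36.0, Irf8 at 27.2, Irf9 at 24.7, Irf3 at 16.8, Irf4 at 10.9 and Irf2 at 9.51. Among these factors Irf7 thus went from the fourth place to the first, and Irf3 moved from the second to the sixth. Among these factors in the RANKL order only Irf1 and Irf5, and Irf9 and Irf3, were neighbours whose libraries did not overlap.

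The IRF2-binding proteins, corepressors named for their partner, were split. Irf2bp1 was at 90.5, 60.4 and 83.4 CPM in the controls and 36.3, 30.8 and 41.0 CPM with RANKL. It fell 2.17-fold (log2 -1.12 ± 0.20, edgeR adjusted p = 0.000842) with no overlap. Irf2bpl rose from 54.7, 39.4 and 48.9 to 66.3, 81.5 and 68.0 CPM (log2 0.59 ± 0.17, edgeR adjusted p = 0.014; adjusted p = 0.0689 without control replicate 2). Irf2bp2 rose by 0.41 ± 0.15 (edgeR adjusted p = 0.0363), a call lost on leaving out any single library but RANKL replicate 1, with adjusted p from 0.059 to 0.118. It was also lost with no low-count filter (adjusted p = 0.108) and in DESeq2 (adjusted p = 0.0618). With a block for the title-number range the calls of both Irf2bp2 (adjusted p = 0.0932) and Irf2bpl (adjusted p = 0.0578) were lost.

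**Figure D3:**
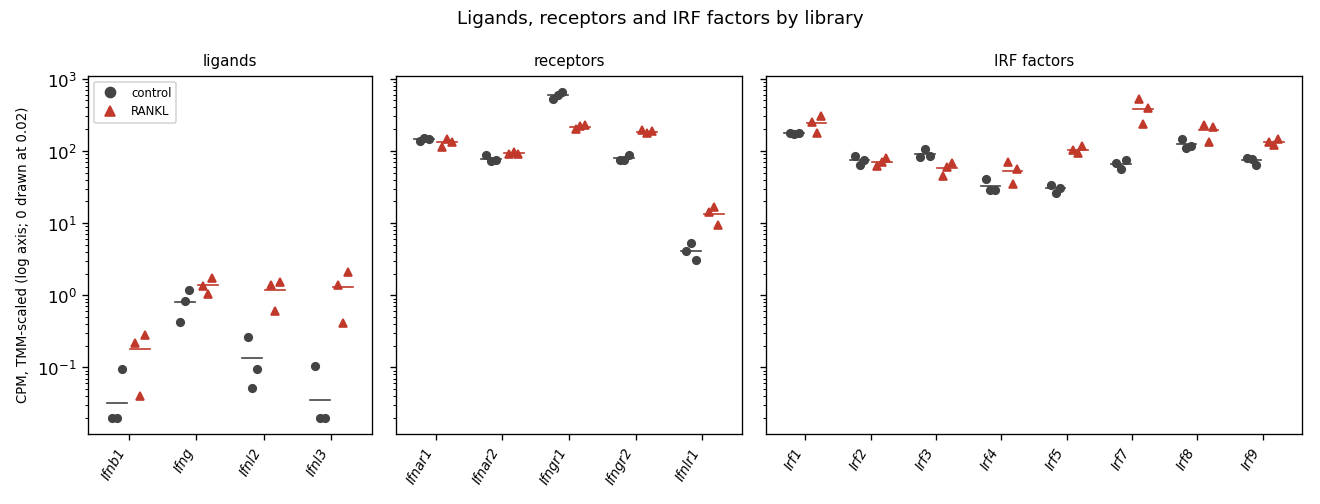
CPM (log axis, 0 drawn at 0.02) in each library for 4 ligands, the receptor chains and the IRF factors named in the text; circles are the 3 control libraries, triangles the 3 RANKL libraries and short lines the group means. Ifngr1 is the receptor chain whose RANKL points all lie below the controls, while Irf5 and Irf7 lie far above them.

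Of the ubiquitin-like modifier, its protease and 3 antiviral enzymes 4 rose and 1 fell, beside 33.8% higher and 29.6% lower over all genes tested. Their median log2 fold change was 2.22. Isg15, the modifier that is conjugated to proteins after interferon (chromosome 4, 156199424 to 156200818), was at 29.1, 27.2 and 36.03 CPM in the controls and 191, 208 and 206 CPM with RANKL. The RANKL libraries differed little from each other, and the rise was 6.55-fold (log2 2.71 ± 0.17, edgeR adjusted p = 4.96e-06). Usp18, which removes ISG15 and dampens the type I receptor, was at 46.1, 39.4 and 45.8 CPM in the controls and 242, 150.2 and 219.5 CPM with RANKL. It rose 4.66-fold (log2 2.22 ± 0.21, edgeR adjusted p = 2.22e-05) with RANKL replicate 2 the lowest of its group. Rsad2, the gene of viperin (chromosome 12, 26442743 to 26456452), was low in the controls, at 4.01, 4.07 and 3.58 CPM (76, 79 and 75 reads). With RANKL it stood at 66.9, 51.4 and 84.9 CPM. It rose 17.4-fold (log2 4.12 ± 0.24, edgeR adjusted p = 4.08e-06).

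Ddx58, the gene of the RNA sensor RIG-I, was at 77.4, 65.8 and 64.2 CPM in the controls and 137, 117 and 135 CPM with RANKL. It rose 1.88-fold (log2 0.91 ± 0.15, edgeR adjusted p = 0.000703). Isg20, a 3′ to 5′ exonuclease (chromosome 7, 78913396 to 78920396), went the other way, from 89.5, 75.4 and 90.8 CPM to 45.2, 37.3 and 55.1 CPM. Every RANKL library was below every control library, a 1.86-fold fall (log2 -0.89 ± 0.18, edgeR adjusted p = 0.00197).

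The active enzymes of the 2′-5′ oligoadenylate synthetase (OAS) family make the second messenger of RNase L. Not every member counted here is an active enzyme. Of 12 members 10 were higher (83.3%) and 2 not called, beside 33.8% higher and 29.6% lower over all genes tested. The median log2 fold change was 3.03. Oas1d, Oas1e, Oas1f and Oas1h, among the 10, passed the low-count filter only through their RANKL libraries. The count, the median and their large folds are in part a product of that entry. The 10 Oas1 to Oas3 genes lie in one cluster of chromosome 5 (120730333 to 120921648), and 8 of them rose. Among its genes above the minimum level for naming (mean log2 CPM 1) the largest rise was that of Oas1h, from 0.58, 0.412 and 0.239 CPM to 7.11, 4.68 and 8.01 CPM, or 15.95-fold (log2 3.996 ± 0.44, edgeR adjusted p = 5.19e-05). Better covered genes of the family showed the same direction. Oas1a was at 17.1, 15.98 and 16.96 CPM in the controls and 115, 93.5 and 111 CPM with RANKL (log2 2.67 ± 0.16, edgeR adjusted p = 4.55e-06). Oas3 was at 19.8, 12.3 and 11.3 CPM in the controls and 119.5, 105.04 and 119 CPM with RANKL (log2 2.99 ± 0.23, edgeR adjusted p = 1.03e-05). Oas2, which needs longer RNA than the small forms, changed by 3.05 ± 0.29 (edgeR adjusted p = 2.4e-05). In each of these genes the groups were far apart.

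The low-level Oas1d, Oas1e and Oas1f rose as well, with log2 fold changes of 3.91 ± 0.48, 3.69 ± 0.53 and 3.26 ± 0.63. Without control replicate 1 those of Oas1d and Oas1f became 4.51 and 4.48. Oas1g was at 3.37, 4.59 and 2.82 CPM in the controls and 35.4, 25.2 and 26.4 CPM with RANKL (log2 3.01 ± 0.26). It shares 45.7% of its 50-base words with other genes and Oas1a 57.6%, each mainly with the other, so the split of reads between them is uncertain. The exceptions were Oas1b and Oas1c. Oas1b was at 8.33, 17.5 and 8.55 CPM in the controls and 11.7, 14.8 and 23.2 CPM with RANKL (log2 0.53 ± 0.35, edgeR adjusted p = 0.211), with control replicate 2 high, and passed the test without it (log2 0.95, adjusted p = 0.0401) and with a block for the title-number range (adjusted p = 0.0457). That library was alone in its title-number range, so these fits are not independent of each other. Oas1c was at 6.33, 8.25 and 8.7 CPM in the controls and 13.5, 8.86 and 12.1 CPM with RANKL (log2 0.56 ± 0.26, edgeR adjusted p = 0.0798), and passed without RANKL replicate 2 (log2 0.72, adjusted p = 0.0471).

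The Oasl genes, OAS-like proteins with ubiquitin-like ends, lie apart on chromosome 5 (114896926 to 114937911). Oasl1 was at 12.7, 3.35 and 6.83 CPM in the controls and 122, 99.4 and 99.9 CPM with RANKL, a 14.1-fold rise (log2 3.81 ± 0.40, edgeR adjusted p = 4.32e-05). Oasl2 was at 90.8, 75.9 and 74.2 CPM in the controls and 389.7, 335 and 404 CPM with RANKL (log2 2.23 ± 0.17, edgeR adjusted p = 9.52e-06). Neither gene overlapped between groups.

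Both Mx genes, dynamin-like GTPases that trap viral nucleoproteins (chromosome 16, 97447035 to 97560901), rose. Mx1 was at 7.54, 9.23 and 6.69 CPM in the controls and 59.9, 32.7 and 45.5 CPM with RANKL, a 5.88-fold rise (log2 2.56 ± 0.26, edgeR adjusted p = 3.39e-05). Mx2 was at 8.12, 10.3 and 8.27 CPM in the controls and 29.6, 13.3 and 29.2 CPM with RANKL, 2.69-fold (log2 1.43 ± 0.31, edgeR adjusted p = 0.00286). In both the lowest RANKL library was replicate 2, and for Mx2 it came close to the controls.

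The IFIT proteins bind viral RNA that lacks the host cap, and their 3 genes here lie together on chromosome 19 (34550550 to 34650009). Ifit1 was at 48.1, 35.8 and 39.3 CPM in the controls and 213, 120.2 and 162 CPM with RANKL (log2 2.01 ± 0.23, edgeR adjusted p = 6.8e-05). Ifit3 was at 14.5, 14.4 and 20.3 CPM in the controls and 98.4, 31.5 and 83.8 CPM with RANKL, a 4.33-fold rise (log2 2.12 ± 0.37, edgeR adjusted p = 0.000873). Ifit2 was at 54.4, 45.3 and 49.8 CPM in the controls and 102, 34.6 and 88.7 CPM with RANKL. Here RANKL replicate 2 lay below all controls and the other RANKL libraries above them, and Ifit2 was not called (log2 0.59 ± 0.33, edgeR adjusted p = 0.144) but was without that library (log2 0.95, adjusted p = 0.00135).

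The IFITM genes encode small membrane proteins that hold back virus entry. Of 6 tested 5 rose and 1 was not called, beside 33.8% higher and 29.6% lower over all genes tested. The median log2 fold change was 2.86, and the 5 were those of the cluster on chromosome 7 (140948958 to 141016892). Ifitm6 had the largest fold of all members tested, from 0.422, 0.309 and 0.526 CPM to 6.78, 15.9 and 11.9 CPM, or 27.04-fold (log2 4.76 ± 0.43, edgeR adjusted p = 2.13e-05). It had 8, 6 and 11 reads in the controls and, like Ifitm5, passed the low-count filter only through its RANKL libraries. Ifitm3 was the most abundant, at 140.4, 150.4 and 184 CPM in the controls and 1056, 1342 and 991 CPM with RANKL, or 7.14-fold (log2 2.84 ± 0.21, edgeR adjusted p = 8.01e-06). Ifitm1 was at 10.8, 11.2 and 15.3 CPM in the controls and 162, 319.9 and 119 CPM with RANKL, or 16.1-fold (log2 4.01 ± 0.37, edgeR adjusted p = 2.23e-05). These groups did not overlap, and in contrast to the Mx and IFIT genes the highest RANKL library was replicate 2. Ifitm2 rose by 2.65 ± 0.23 on the log2 scale. Ifitm5, known from bone-forming cells, had 3, 5 and 0 reads in the controls and 16, 27 and 25 with RANKL (log2 2.89 ± 0.70, edgeR adjusted p = 0.00532), which became 2.28 without control replicate 3 and 3.66 without control replicate 2. Ifitm10, which lies outside the cluster, was not called (log2 0.14 ± 0.34, edgeR adjusted p = 0.74).

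**Figure D4:**
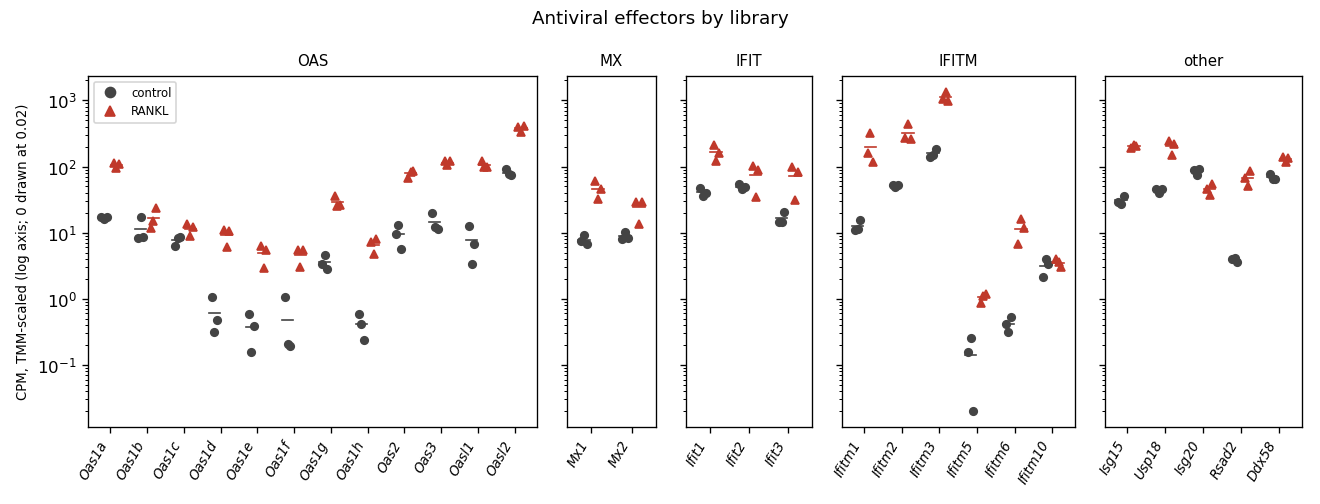
CPM (log axis, 0 drawn at 0.02) in each library for the OAS, MX, IFIT and IFITM genes and for the modifier and antiviral enzymes; circles are the 3 control libraries, triangles the 3 RANKL libraries and short lines the group means. The RANKL means of Rsad2 and Ifitm1 lie more than 10-fold above the control means, and all RANKL libraries of Isg20 lie below its controls.

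The guanylate-binding proteins (GBP), large GTPases that attack vacuoles of pathogens and are induced above all by interferon gamma, gave both higher and lower calls. Of 11 members 6 were higher (54.5%), 1 lower (9.09%) and 4 not called, beside 33.8% higher and 29.6% lower over all genes tested. None reached a 4-fold rise, and the median log2 fold change was 0.71. Gbp3, which rose most, was at 24.8, 25.3 and 31.2 CPM in the controls and 82.8, 58.5 and 73.8 CPM with RANKL, or 2.65-fold (log2 1.40 ± 0.19, edgeR adjusted p = 0.000157). Gbp4 was the one that fell, from 123, 161 and 115 CPM to 80.7, 57.5 and 112 CPM. Its highest RANKL library lay just below the lowest control, and the call (log2 -0.67 ± 0.24, edgeR adjusted p = 0.0357) was lost without control replicate 2 (adjusted p = 0.118), RANKL replicate 1 (adjusted p = 0.0924) or RANKL replicate 2 (adjusted p = 0.114). It was also lost with library totals (adjusted p = 0.0611) and with a block for the title-number range (adjusted p = 0.162).

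Gbp5, Gbp10 and Gbp8 rose by 1.19, 1.05 and 1.03 on the log2 scale. Gbp2 rose by 0.74 (edgeR adjusted p = 0.0122; adjusted p = 0.053 without control replicate 2). Gbp9 rose by 0.58 (edgeR adjusted p = 0.0485), but its groups overlapped and the call was lost without control replicate 1 (adjusted p = 0.124), control replicate 3 (adjusted p = 0.149), RANKL replicate 1 (adjusted p = 0.0783) or RANKL replicate 3 (adjusted p = 0.166). The Gbp9 call was also lost with library totals (adjusted p = 0.0599), with no low-count filter (adjusted p = 0.0666), with sample-title number ranges taken as a block (adjusted p = 0.0502), in DESeq2 (adjusted p = 0.0532) and in limma-voom (adjusted p = 0.0569). With that block the call of Gbp2 was lost too (adjusted p = 0.0597). Not called were Gbp11 (log2 0.71 ± 0.33, edgeR adjusted p = 0.0821), Gbp6 (0.62 ± 0.38, adjusted p = 0.176), Gbp2b (-0.00 ± 0.32, adjusted p = 0.996) and Gbp7 (-0.05 ± 0.17, adjusted p = 0.829). Without RANKL replicate 2, Gbp11 (log2 0.94, adjusted p = 0.0279) and Gbp6 (log2 0.92, adjusted p = 0.0375) passed the test, and Gbp6 also did without control replicate 1 (log2 1.01, adjusted p = 0.039). Of the 50-base words of Gbp10 76.2%, and of Gbp6 49.9%, occur in another gene, mainly in the other of the pair, so their separate values are uncertain.

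The immunity-related GTPases, the smaller partners of the GBP proteins in that defence, had 2 of 4 higher and 2 not called. Over all genes tested 33.8% were higher. Irgm1 was at 69.7, 79.6 and 80.1 CPM in the controls and 258, 167 and 247 CPM with RANKL, or 2.93-fold (log2 1.55 ± 0.19, edgeR adjusted p = 0.000116). Irgm2 rose by 1.03 ± 0.27 on the log2 scale (edgeR adjusted p = 0.00852). Its neighbour Igtp was at 153, 136 and 162 CPM in the controls and 223, 127 and 239.6 CPM with RANKL (log2 0.38 ± 0.23, edgeR adjusted p = 0.174). RANKL replicate 2 lay below all controls for Igtp, and without it the gene was called (log2 0.63, adjusted p = 0.0131). The exons of Igtp and Irgm2 overlap by 162 bases on the same strand. Of the 50-base words of Igtp 11.8% also occur in Irgm2, so reads may be exchanged between them. Ifi47 was at 104, 114 and 144 CPM in the controls and 128, 102 and 185 CPM with RANKL and was not called (log2 0.20 ± 0.23, edgeR adjusted p = 0.474).

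The p200 family, DNA-binding proteins encoded on chromosome 1 (173747293 to 174031755), held both large changes and none. Ifi202b was at 14.8, 14.9 and 16.5 CPM in the controls and 145, 357 and 188 CPM with RANKL, a 14.9-fold rise (log2 3.90 ± 0.33, edgeR adjusted p = 1.44e-05). Ifi205 was at 3.16, 3.66 and 6.59 CPM in the controls and 13.2, 72.3 and 15.7 CPM with RANKL. RANKL replicate 2 was the highest for both and set the size of the change of Ifi205, which was 2.91 ± 0.65 on the log2 scale (edgeR adjusted p = 0.00382) with it and 1.69 (adjusted p = 0.00314) without it. Ifi203 rose by 0.45 ± 0.17 (edgeR adjusted p = 0.0448), a call lost without control replicate 1 (adjusted p = 0.156), control replicate 3 (adjusted p = 0.0772), RANKL replicate 2 (adjusted p = 0.122) or RANKL replicate 3 (adjusted p = 0.125). It was also lost with library totals (adjusted p = 0.0504), with no low-count filter (adjusted p = 0.126) and in DESeq2 (adjusted p = 0.083). Ifi204 was not called (0.12 ± 0.25, adjusted p = 0.684).

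Of the 6 other Ifi genes 5 rose, beside 33.8% higher and 29.6% lower over all genes tested. The median of the 6 log2 fold changes was 1.502. Ifi44, a cytosolic protein induced by type I interferon, was at 10.2, 12.8 and 13.8 CPM in the controls and 61.3, 53.5 and 54.6 CPM with RANKL, or 4.6-fold (log2 2.20 ± 0.18, edgeR adjusted p = 1.32e-05). Ifi30, the lysosomal thiol reductase GILT of antigen-presenting cells, rose from 109, 85.2 and 133 CPM to 413, 289.9 and 435 CPM (log2 1.80 ± 0.22, edgeR adjusted p = 0.000112). Beside it all 9 macrophage and monocyte markers rose. Of 8 conventional dendritic cell markers 4 rose and 2 fell, and none of 6 B cell markers was called. The part of these cell types was not tested. Ifi27l2b, on few reads (2, 3 and 6 against 38, 28 and 51), rose by 3.29 ± 0.55 on the log2 scale, Ifi27l2a by 1.20 ± 0.26 and Ifi35 by 0.93 ± 0.17. Ifi27 was at 69.2, 101 and 147 CPM in the controls and 93.1, 98.1 and 117 CPM with RANKL and was not called (log2 -0.04 ± 0.25, edgeR adjusted p = 0.902). The spans of Ifi27 and Ifi27l2a overlap on chromosome 12, but only 0.0% and 0.5% of their 50-base words occur in another gene.

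A list of 86 further genes of the pathway, none of them members, gave 53 higher, 6 lower and 25 not called among the 84 tested. Over all genes tested 33.8% were higher and 29.6% lower. The median log2 fold change of the list was 1.02, and its lower genes numbered 2 without RANKL replicate 1 and 3 without RANKL replicate 2. Rnf213 was not analysed here and Gvin1 was too low to be tested. Of 7 JAK-STAT signal carriers 3 rose, Stat3 by 1.47 ± 0.17, Jak2 by 1.13 ± 0.20 and Stat2 by 0.87 ± 0.21 on the log2 scale, and Jak1, which serves all 3 receptor types, fell (log2 -0.59 ± 0.16). Of 6 brakes of signalling Socs3, which acts mainly on IL-6 type receptors, rose by 3.38 ± 0.26, and Pias1 and Ptpn6 were lower at -0.90 ± 0.16 and -0.66 ± 0.19. Socs1, the brake of the interferon receptors, was not called (log2 -0.33 ± 0.21, edgeR adjusted p = 0.19).

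Among 16 sensors of nucleic acid and their adaptors 10 rose and 1 fell, beside 33.8% higher and 29.6% lower over all genes tested. Tmem173, the gene of STING, was higher by 2.41 ± 0.17 on the log2 scale, Dhx58, the gene of LGP2, by 2.27 ± 0.18, and Ifih1, the gene of MDA5, by 2.01 ± 0.17. Aim2, a DNA sensor of the p200 kind, was the one that fell (-0.63 ± 0.23). Of 37 further effectors 26 rose, with Parp12 at 2.05 ± 0.15, Phf11d at 2.94 ± 0.24 and Ch25h, which makes the antiviral oxysterol 25-hydroxycholesterol, at 4.53 ± 0.31. Sp100 and Nmi fell (-0.58 ± 0.18 and -0.76 ± 0.22). Of 18 genes of interferon gamma chemokines and antigen presentation 13 rose and none fell, among them Nos2 (4.72 ± 0.54), H2-D1 (1.61 ± 0.21) and Cd274, the gene of PD-L1 (1.43 ± 0.17). The 5 not called were Cxcl9, Tap2 and the immunoproteasome genes Psmb8, Psmb9 and Psmb10.

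The RANKL libraries differed among themselves in a way that ran through most of the members. In 48 of the 72 tested members the lowest of the 3 RANKL libraries was replicate 2, which held for 33.9% of all genes tested. The highest was replicate 1 in 27 members, replicate 2 in 13 and replicate 3 in 32. The median deviation of replicate 2 from the mean of the other RANKL libraries was -0.42 on the log2 scale over the members. All 11 GBP genes, 3 IFIT genes, 4 immunity-related GTPases and both Mx genes were lowest in it, as were 10 of 12 OAS genes. In contrast 4 of 6 IFITM genes and 3 of 4 p200 genes were highest in it.

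Replicate 2 also stood apart in other transcripts. Tnfsf11 was highest there, at 4812 CPM against 3334 and 2390 CPM in the other RANKL libraries. Summed neutrophil markers were at 3217, 5757 and 2836 CPM in RANKL replicates 1, 2 and 3, and fibroblast markers at 3231, 4607 and 2319 CPM. Lower in replicate 2 were the NK and cytotoxic T cell markers (125.5, 89.3 and 164.9 CPM) and the B cell markers (112.9, 65.3 and 138.1 CPM). The genes of interferon gamma chemokines and antigen presentation summed to 24960, 15170 and 22670 CPM. For Ifng the scaled levels were 1.35, 1.06 and 1.74 CPM. They rest on counts of 25, 26 and 37, too few to place replicate 2 below replicate 1. The part of these differences in the spread of the members was not tested.

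**Figure D5:**
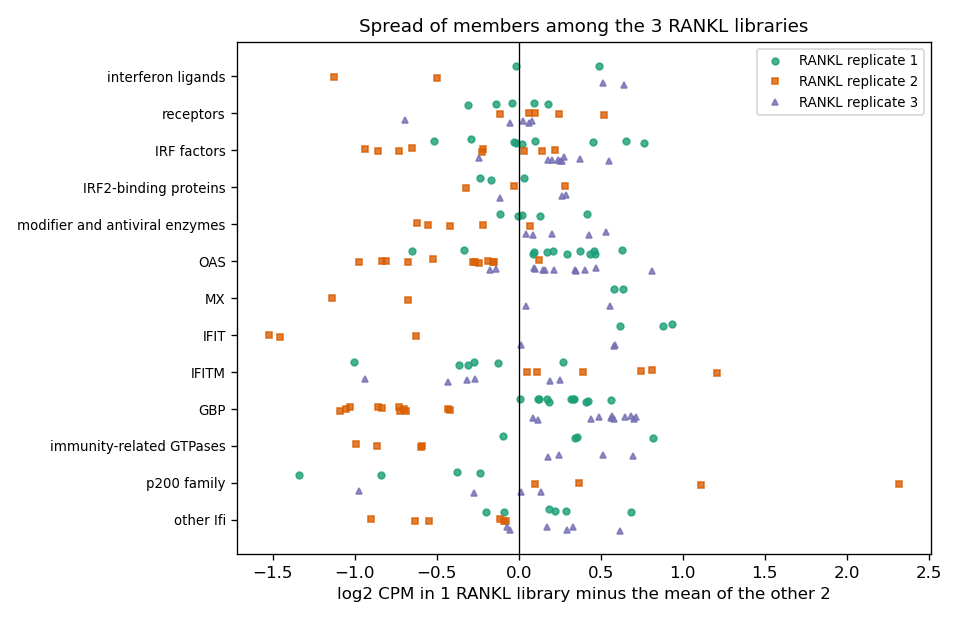
Log2 of CPM plus 0.1 in 1 RANKL library minus the mean of the other 2 (x axis), for the tested members in rows by role; circles, squares and triangles are RANKL replicates 1, 2 and 3. The squares of replicate 2 lie below 0 for the GBP, IFIT, MX and immunity-related GTPase genes and above 0 for the IFITM and p200 genes.

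Plasmacytoid dendritic cells, the strongest producers of interferon alpha, had 2 of 4 markers higher and 1 lower, with summed levels of 49.0–56.6 CPM in the controls and 44.5–77.3 CPM with RANKL. Conventional dendritic cells had 4 of 8 higher and 2 lower (159–241 to 287–405 CPM). Itgax alone went from 24.8, 16.5 and 18.8 CPM to 150, 155 and 201 CPM of that sum, and Xcr1 and Clec9a were the 2 that fell. NK and cytotoxic T cells, the main source of interferon gamma, had 3 of 8 higher and 1 lower (104–137 to 89.3–165 CPM), and of 6 B cell markers none was called (120–128 to 65.3–138 CPM). Beside these counts, 33.8% of all genes tested were higher and 29.6% lower, so on lists this short they say little. The ranges of the plasmacytoid, NK and B cell sums overlapped between the groups, and none of these lists had a marker at 0 in a group.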

How the data were processed

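For 3 control and 3 RANKL libraries, made with a stranded mRNA kit per the labels' protocols, the authors deposited raw read counts per gene. STAR and mm10 are named in the submitters' processing notes; which program counted the reads, with which annotation and strand option, is not given in the sources used here. Overlapping or near-identical genes may therefore share reads. Genes kept by filterByExpr were scaled by TMM and tested with the robust quasi-likelihood test of edgeR 4.0.16 (R 4.3.3), two-sided, without covariates, with Benjamini-Hochberg adjustment over 16096 genes. CPM used TMM-scaled totals, SE came from the F statistic, and exon lengths and 50-base words from GENCODE M21. Coordinates are those of RefSeq on GRCm38. The members, lists and rules were chosen with earlier results of these data known.

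Named were the ligands, receptors, IRF factors, the modifier and antiviral genes, both Mx genes, members not called, and in every other group the called members with the largest change each way at a mean log2 CPM of at least 1. Of listed genes, those with the smallest p were named. Members outside that rule, and other listed genes such as Socs1 and Ctsl, were chosen after their values were seen. Another 2 genes enter the counts, and their own values are not reported here. Replicate numbers follow accession order and do not pair samples. The code was tested on simulated counts. Alternatives were RLE factors, library totals, 2 other filters, a fit without robust estimation, DESeq2 1.42.0, limma-voom (limma 3.58.1), a block for the title-number range, a threshold of 0.01, a 1.5-fold test and each library left out. Figures used matplotlib 3.10.9.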

Additional observations from a re-analysis of the deposited data

How the results depend on the processing

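No paired analysis was possible because the labels give no replicate numbers. Taking sample-title number ranges as a block, run in its place, ended the calls of Gbp2, Gbp4, Gbp9, Irf8, Irf2bp2 and Irf2bpl and made Oas1b pass. Control replicate 2 was alone in its range and added nothing to the group difference in that fit. The block and the fit without control replicate 2 are therefore not independent alternatives. Over the alternatives run, the members that were higher numbered 42 to 55 and the median member log2 fold change ran from 1.07 to 1.39. All 55 called members kept their direction under every alternative, and 45 were called under each. Of 17 that were not called 7 were called under at least 1 alternative. The 5 lower members became 3 at an adjusted p under 0.01 and 3 in the test against a 1.5-fold change, and 3 to 5 with a library left out (3 without control replicate 2, and 3 when RANKL replicate 1 was dropped). The 6 lower genes of the pathway list became 1 at an adjusted p under 0.01 and 1 in the 1.5-fold test, and 2 to 7 with a library left out (2 when RANKL replicate 1 was dropped). Fewer genes can pass these stricter rules; otherwise the cause was not tested. Without the members that share over 10% of their 50-base words with another gene, an alternative chosen after seeing the data, 44 were higher and 5 lower with a median of 1.20. No scaling moved the median of all genes by over 0.03.

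The 7 members whose sign changed were near 0 and not called. With a library left out, the log2 fold change ran from -0.21 to 0.29 for Gbp2b, from -0.12 to 0.0936 for Gbp7, from -0.10 to 0.31 for Ifitm10 and from -0.0429 to 0.38 for Ifi47. It ran from -0.21 to 0.0451 for Irf2, from -0.29 to 0.26 for Ifi27 and from -0.14 to 0.34 for Ifi204. Gbp2b also became 0.0288 with library totals, 0.0316 at the stricter filter and 0.12 when title-number ranges were a block, Gbp7 0.0362 under that block, and Ifi27 0.0209 with limma-voom. Type I interferons had few or no reads, so changes in them were not detectable at this depth.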
